A study of Rattus norvegicus with 18 samples.

Results

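Rat kidney turns arachidonic acid into 2 families of lipid signals through cytochrome P450 enzymes, and the transcripts of 8 genes of these routes were followed here in whole kidneys of 18 rats. The genes were Cyp4a1, Cyp4a2, Cyp4a3 and Cyp4a8 of the omega-hydroxylase family, the epoxygenases Cyp2c23 and Cyp2j4, and the epoxide hydrolases Ephx1 and Ephx2. Every probe set annotated to one of them was taken, which gave 9 of the 31042 probe sets on the array, and all 9 were bright enough to be tested. Of these, 8 name a single gene. The remaining one, 1394844_s_at, names both Cyp4a2 and Cyp4a3, and Cyp4a2 has no probe set of its own, so a Cyp4a2 signal cannot be told apart from that of Cyp4a3.

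The omega-hydroxylases add a hydroxyl group at the end of the arachidonate chain and make 20-HETE, which constricts renal microvessels and inhibits sodium transport in the tubule. The epoxygenases make epoxyeicosatrienoic acids, which mostly dilate vessels and also act on tubular sodium transport. Ephx2, the soluble epoxide hydrolase, converts these epoxides into less active diols, whereas Ephx1, the microsomal enzyme, is best known for detoxifying foreign epoxides. Both routes have been studied in the Dahl salt-sensitive rat, an inbred strain that becomes hypertensive and develops kidney damage on a high-salt diet.

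The kidneys came from 9 Dahl S rats (SS/Jr) and 9 rats of S.SHR(2), a congenic strain bred between SS/Jr and SHR/NHsd, each hybridised to 1 Affymetrix array of rat transcripts. A congenic strain carries a donor segment on the genetic background of the other strain, here of chromosome 2 by the usual notation, and both groups share the Dahl S background. None of the 8 genes lies on that chromosome in the RefSeq gene table: the Cyp4a genes and Cyp2j4 are on chromosome 5, Cyp2c23 on chromosome 1, Ephx1 on chromosome 13 and Ephx2 on chromosome 15. The design text describes male rats at 4, 12 and 20 weeks, but an age is labelled for 2 Dahl S rats only, 4 weeks for replicate 2 and 12 weeks for replicate 4, each on 0.3% NaCl. The samples were deposited in 3 runs of 6 consecutive arrays, with 3 rats of each strain in each run. What the runs stand for is not labelled, so age, handling and hybridisation cannot be told apart in any difference between them, and no age is read from them here. Rats are the replicates. The study title calls S.SHR(2) renal protective, and the comparison of strains asks which kidney transcripts differ between them.

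Cyp4a2 and Cyp4a3 share a probe set, and their upstream sequences show how alike these neighbours are. The 250 bases before the annotated start of each gene are given below from RefSeq (GRCr8, minus strand, 5′ to 3′), with Cyp4a8 for comparison, and capitals mark the letters AGGTCA, the half-site bound by nuclear receptors such as PPAR alpha. The windows are chr5:134170909-134171158 for Cyp4a2, chr5:134352237-134352486 for Cyp4a3 and chr5:133970227-133970476 for Cyp4a8.
Cyp4a2: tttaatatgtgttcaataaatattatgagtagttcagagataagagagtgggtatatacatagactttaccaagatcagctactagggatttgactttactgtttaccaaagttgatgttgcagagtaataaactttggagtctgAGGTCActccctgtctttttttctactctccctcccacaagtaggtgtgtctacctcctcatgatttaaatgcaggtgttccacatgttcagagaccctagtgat
Cyp4a3: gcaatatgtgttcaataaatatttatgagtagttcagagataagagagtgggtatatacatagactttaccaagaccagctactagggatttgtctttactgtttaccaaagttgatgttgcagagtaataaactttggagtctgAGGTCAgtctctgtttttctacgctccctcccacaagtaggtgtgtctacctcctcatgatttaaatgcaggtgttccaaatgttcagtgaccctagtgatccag
Cyp4a8: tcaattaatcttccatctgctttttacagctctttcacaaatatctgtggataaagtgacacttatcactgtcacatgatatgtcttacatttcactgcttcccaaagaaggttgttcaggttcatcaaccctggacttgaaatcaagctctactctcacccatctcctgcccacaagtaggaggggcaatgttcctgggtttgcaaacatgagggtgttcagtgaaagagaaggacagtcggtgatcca
In a global alignment, 236 of 245 aligned bases were identical between the Cyp4a2 and Cyp4a3 windows (96.3%), against 154 of 220 (70.0%) between Cyp4a2 and Cyp4a8. The AGGTCA letters, searched on both strands (as TGACCT on the other), begin 105 bases before the start in both Cyp4a2 and Cyp4a3 and are absent from the Cyp4a8 window. They also occur in one of the 2 Ephx1 windows, at 2 places, and in neither of the Cyp2c23 and Cyp2j4 windows. Of all 33469 RefSeq promoter windows of this length, 14.1% hold them. The spaced pair AGGTCANAGGTCA, which contains the shorter motif and was searched on both strands, is in 0.0508% of all windows and in 0 of the 7 windows of these genes. These 7 windows cover 6 genes, as none was available for Cyp4a1 or Ephx2. A match describes the letters only.

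No probe set of these genes differed between the strains. The log2 difference, S.SHR(2) minus Dahl S, lay between -0.07 and 0.15 for all 9, on a scale of log2(intensity + 16) after quantile normalization. By limma, 0 of 9 passed an adjusted p of 0.05, beside 0.123% of all 18625 probe sets tested, and 0 of 9 passed at an unadjusted 0.05. With the deposit run as a term in the model, 0 of 9 again passed, beside 0.494% of all probe sets, and the adjusted p ran from 0.770 to 0.995. The 95% intervals from that model bound a strain difference averaged over the runs of these 18 arrays, and not one within a single run. They ran from -0.08 to 0.08 for Cyp2c23 and from -0.05 to 0.15 for the shared Cyp4a2 and Cyp4a3 probe set. The widest was that of Ephx2, from -0.13 to 0.42. On the shared set, quantile normalization left 5 distinct values among the 12 rats of the second and the third runs. A strain difference there may be flattened, so the interval of the shared set is no firm bound. Intervals within single runs were wider, as for Ephx2 in the first run, from 0.05 to 0.91.

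The strains overlapped in every member. On the shared Cyp4a2 and Cyp4a3 probe set, deposited intensities in Dahl S ran from 3843.1 to 9789.9 with a median of 7134.5, and in S.SHR(2) from 4000.8 to 10629.1 with a median of 7321.6. Cyp4a1 had a median of 2034.0 in Dahl S (1171.3 to 2328.4) and 1852.5 in S.SHR(2) (1362.7 to 2982.8). For Cyp2c23 the Dahl S median was 5854.4 and the S.SHR(2) median 5918.7. The Cyp4a3 probe set had medians of 2965.2 (1512.8 to 3396.6) in Dahl S and 3122.8 (1624.6 to 3321.7) in the congenic strain. The Cyp4a8 medians were 2781.2 and 2839.1 for 1368607_at, and 1452.9 and 1347.5 for 1393894_at, Dahl S first. In the same order, Cyp2j4 gave 156.8 and 181.6, Ephx1 gave 1084.7 and 1073.9, and Ephx2 gave 83.1 and 97.6. Each of these medians lay inside the range of the other strain. Values that separate the strains without overlap were seen in 0.113% of all probe sets and in 0 of these 9. Between 0.0173% and 5.68% of the variance of a member lay between strains, against a median of 2.30% over all probe sets tested.

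**Figure D1:**
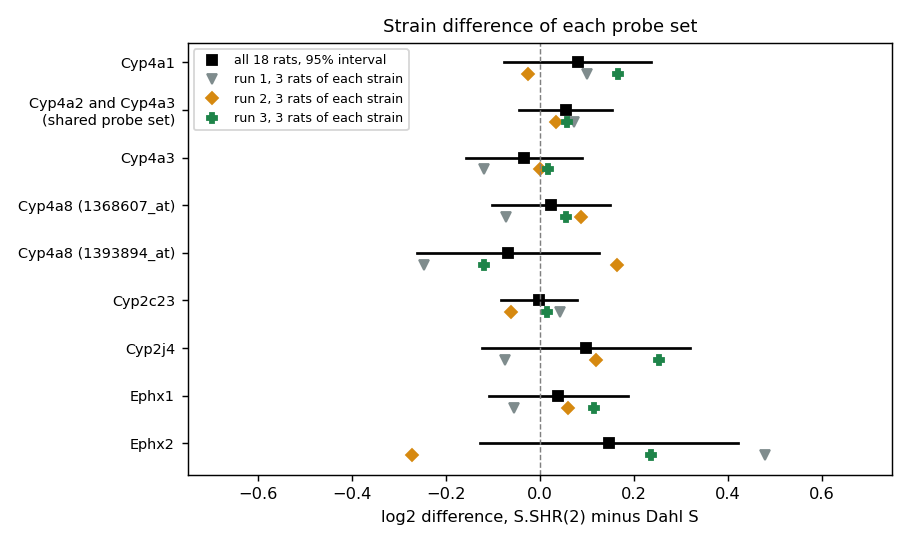
Log2 difference between strains, S.SHR(2) minus Dahl S, for the 9 probe sets (x axis, quantile-normalized values). Squares with bars are all 18 rats with the 95% interval, and other symbols the difference within each run of 3 against 3 rats; every interval spans 0, and the runs scatter most for Ephx2.

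Within single runs, of 27 strain differences 0 passed an adjusted p of 0.05 by limma, beside 0.161%, 0.123% and 0.338% of all probe sets in the first, the second and the third run. At an unadjusted 0.05, 1 of the 27 passed, and it was Ephx2 in the first run. The 3 Dahl S rats of that run gave 74.8, 85.5 and 72.8 and the 3 S.SHR(2) rats 100.3, 122.8 and 112.4, so the strains did not overlap there. The log2 difference was 0.48 ± 0.21 (SE, 3 rats against 3), with an adjusted p of 0.445 by limma. In the second run it was -0.27 ± 0.21, with 46.0, 86.3 and 93.2 in S.SHR(2) against 73.0, 98.6 and 97.9 in Dahl S. In the third run it was 0.24 ± 0.21, with 141.4, 97.6 and 80.9 against 83.1, 114.2 and 79.9. Whether the strain difference itself differed between runs was tested as an interaction: 0 of 9 members passed in limma, beside 0.00537% of all probe sets, and 0 of 9 at an unadjusted 0.05. Ephx2 came nearest (adjusted p = 0.743). This probe set had the lowest median intensity of the 9, and ranked between 8619 and 16177 of 31042 from the brightest in the 18 kidneys.

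Between the deposit runs, 5 of 9 probe sets differed by limma's F test, but so did 50.1% of all probe sets tested, so the share among these genes is near the background. The 5 were Cyp4a1, the shared Cyp4a2 and Cyp4a3 set, Cyp4a3, Cyp2j4 and Ephx1. Both Cyp4a8 probe sets, Cyp2c23 and Ephx2 did not pass. Relative to the first run, the Cyp4a3 probe set and the one it shares with Cyp4a2 were higher in both others while that of their paralog Cyp4a1 was lower in the third, so members of one enzyme family differed in opposite directions. The median log2 difference of the 9 was 0.18 in the second run and 0.09 in the third against the first, beside medians of 0.00 and 0.01 over all probe sets, with 7 and 8 of 9 above 0. Members called higher in the second run than in the first were 3, beside 9.93% of all probe sets. In the third run against the first, 4 were called higher, beside 20.7%, and 1 lower, beside 20.4%. Between the third and second runs Cyp4a1 alone was called, as lower, beside 16.9%. In whole kidney, fewer cells of a type and less RNA per cell cannot be told apart.

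After quantile normalization, the members' widest differences from the first run were those of the shared Cyp4a2 and Cyp4a3 probe set, which carries the signal of omega-hydroxylases that also make some epoxides. In the first run the Dahl S kidneys gave 3843.1, 3896.5 and 4370.9 and the S.SHR(2) kidneys 4564.0, 4000.8 and 4058.1. In the second run the values were 8974.7, 9789.9 and 9273.0 in Dahl S and 9674.4, 10342.0 and 10629.1 in S.SHR(2). In the third they were 6113.5, 7134.5 and 7252.2 in Dahl S and 7868.9, 6375.0 and 7321.6 in S.SHR(2). All 6 rats of the second run lay above all 6 of the third, and these above all 6 of the first, in both strains alike. The probe set ranked between 109 and 207 of 31042 by intensity in the first run, between 7 and 10 in the second and between 6 and 9 in the third.

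After quantile normalization the second run exceeded the first by 1.17 ± 0.06 on the log2 scale (SE, 6 rats against 6), or 2.24-fold, with a limma adjusted p of 1.18e-12. A difference as large and in this direction was seen in 0.419% of all probe sets tested. The third run exceeded the first by 1.17 ± 0.06, which 1.26% of probe sets matched. Deposit run took up 97.3% of the variance of this probe set, against a median of 36.7% over all probe sets.

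For this probe set the third and second runs differed by 0.00 ± 0.06 after quantile normalization but by -0.48 in the values as deposited and by -0.43 after median centring, both called (adjusted p = 4.2e-06 and 7.6e-05 in limma). Quantile normalization sets a value by its rank on the array, and 6 of the 12 rats of the second and the third runs received the same value, 13.12. Arrays of the third run had a lower brightest value, 7508.3 to 9498.5, than those of the first (11117.1 to 14648.3) or second (11270.1 to 13704.0). The order of the second and the third runs for this probe set therefore depends on the scaling, whereas both exceeded the first under each scaling tried. The gap between the third run and the first was 0.76 as deposited and 0.83 after median centring, in place of 1.17.

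**Figure D2:**
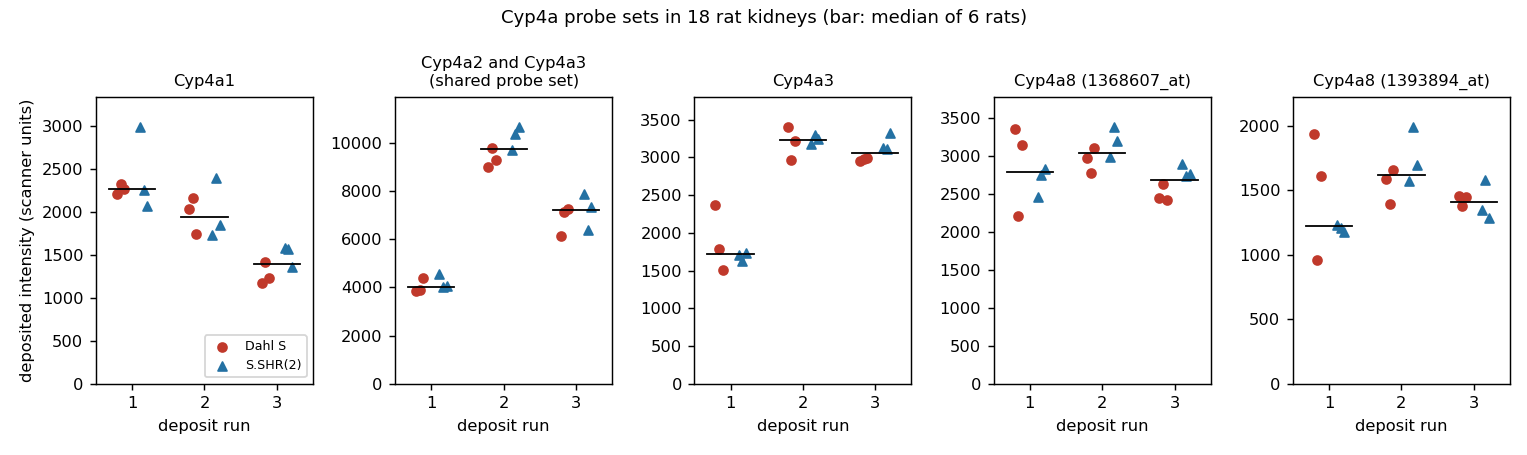
Deposited intensity (y axis, from 0) of the 5 Cyp4a probe sets in each of 18 kidneys, by deposit run (x axis) and strain (circles Dahl S, triangles S.SHR(2)), with the median of each run as a bar. The shared Cyp4a2 and Cyp4a3 set and the Cyp4a3 set sit higher in runs 2 and 3 than in run 1, Cyp4a1 sits lower in run 3, and the strains overlap.

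Cyp4a3 was also measured by a probe set annotated to it alone, 1370397_at. Probe sequences were not examined, so whether transcripts of Cyp4a2 or another paralog also bind to it was not tested. First-run kidneys gave 2372.0, 1780.7 and 1512.8 in Dahl S and 1702.2, 1624.6 and 1729.3 in S.SHR(2). Second-run kidneys gave 3396.6, 2965.2 and 3216.7 in Dahl S and 3180.0, 3289.5 and 3242.0 in S.SHR(2). Third-run kidneys gave 2945.9, 2983.9 and 2995.4 in Dahl S and 3122.8, 3111.1 and 3321.7 in S.SHR(2). All rats of the second and the third runs lay above all of the first, while those later-deposited runs overlapped each other. The second run exceeded the first by 0.85 ± 0.07 (log2, SE), or 1.80-fold, and the third by 0.86 ± 0.07, with adjusted p of 1.43e-08 and 2.78e-09 by limma.

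Whether the shared probe set differed more from the first run than the Cyp4a3 probe set did depended on the run and the scaling. Per rat, after quantile normalization, the gap between the log2 values of the shared set and of Cyp4a3 was wider by 0.32 in the second run than in the first (exact permutation test over 924 splits of the rats, two-sided p = 0.0303, smallest possible 0.00217). It was wider by 0.31 in the third run (exact permutation p = 0.0390). As deposited, where median centring leaves the gap as it is, it was wider by 0.39 in the second run (exact permutation p = 0.00866) but differed by -0.03 in the third (exact permutation p = 0.823), so for the third run the sign turned. The normalized gaps rest on Dahl S replicate 1, whose Cyp4a3 value of 2372.0 was the highest of the first run: without it the gaps were 0.21 and 0.20, with exact permutation p of 0.0606 and 0.0779. Without that rat the values as deposited gave 0.28 in the second run (exact permutation p = 0.0173) and -0.14 in the third (exact permutation p = 0.143). This comparison was chosen after the values were seen. Across all 18 rats the 2 probe sets correlated at r = 0.926 (rho = 0.621), but at -0.50 after the mean of each strain and run was removed. The latter value includes Dahl S replicate 1. In addition, 6 of the 12 rats of the second and the third runs have the same normalized value of the shared set. It therefore cannot show how the 2 probe sets relate among rats of a run.

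Both directions held within each strain on its own. In Dahl S, the second run exceeded the first by 1.19 ± 0.09 for the shared probe set and by 0.79 ± 0.10 for Cyp4a3, and in S.SHR(2) by 1.15 ± 0.09 and 0.91 ± 0.10 (log2, SE, 3 rats against 3, limma). Of the 9 probe sets, 3 were called higher in the second run in Dahl S, beside 4.63% of all, and 4 in S.SHR(2), beside 4.83%. In the third run against the first, 3 were called higher in Dahl S (11.5% of all) and 4 in S.SHR(2) (15.4%), and Cyp4a1 alone was lower in each (12.3% and 15.1%), with differences of -0.79 and -0.73. Between the third and the second runs Cyp4a1 alone was lower in each strain (10.5% and 10% of all). The call of Cyp4a8 (1393894_at) in S.SHR(2) in the second run (0.50 ± 0.16) and that of Ephx1 there in the third (0.34 ± 0.13) were not called in Dahl S (0.09 and 0.17), and the interaction did not pass for either. The 2 Dahl S rats with a labelled age fall in the first and second runs: the 4-week rat gave 3896.5 on the shared probe set and 1780.7 for Cyp4a3, and the 12-week rat 8974.7 and 3396.6. With 1 rat at each age these are values without a test.

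Cyp4a1, an omega-hydroxylase with high activity on arachidonate, ran the other way. The first run gave 2210.7, 2328.4 and 2270.9 in Dahl S and 2982.8, 2251.2 and 2064.8 in S.SHR(2). The second gave 2034.0, 2166.8 and 1741.5 in Dahl S and 1730.2, 2392.7 and 1852.5 in S.SHR(2). The third gave 1171.3, 1415.8 and 1228.9 in Dahl S and 1584.9, 1573.7 and 1362.7 in S.SHR(2). Every kidney of the third run lay below every kidney of the other runs, which overlapped each other. The third run differed from the first by -0.76 ± 0.09 on the log2 scale (0.591-fold, limma adjusted p = 7.49e-07) and from the second by -0.51 ± 0.09 (adjusted p = 1.62e-04). The second run differed from the first by -0.24 ± 0.09, which did not pass (adjusted p = 0.0679), though it passed without S.SHR(2) replicate 3, Dahl S replicate 5 or S.SHR(2) replicate 5, with values from -0.30 to -0.29.

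Levels of Cyp4a1 also moved with a sign of RNA quality. The ratio of the 3′ to the 5′ GAPDH control probe set, which is high where RNA is degraded or poorly copied, was highest in S.SHR(2) replicate 1 (2.51) and Dahl S replicate 5 (2.04), and the other arrays of their runs gave 1.19 to 1.75. S.SHR(2) replicate 1 held the highest Cyp4a1 value of all kidneys, 2982.8, and the lowest Ephx1 value, 756.4. After the mean of each strain and run was removed, Cyp4a1 correlated with the log2 of this ratio at r = 0.906 and Ephx1 at -0.83 over the 18 rats; a size above 0.8 was seen in 4.58% of all probe sets. With the ratio as a covariate beside the run, the strain difference was 0.04 for Cyp4a1 and 0.07 for Ephx1, and 0 of 9 members passed (limma adjusted p = 0.625 to 0.941). In the same way the third run differed from the first by -0.79 for Cyp4a1, 1.16 for the shared set and 0.86 for Cyp4a3. The 3′ to 5′ ratio of actin had medians of 3.48, 3.69 and 2.63 in the 3 runs, beside 1.41, 1.36 and 1.53 for GAPDH. By median, the third run was thus lowest in actin and highest in GAPDH. Within strain and run, the log2 actin ratio correlated at 0.843 with Cyp4a1, 0.731 with the shared set, -0.539 with Cyp4a3 and -0.863 with Ephx1. It was not used as a covariate, so its part in the run differences was not tested.

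Cyp4a8, a paralog known from rat kidney and prostate, did not pass between runs. Its probe set 1368607_at gave medians of 2796.3, 3048.1 and 2690.4 in the 3 runs, and 1393894_at gave 1219.8, 1619.9 and 1410.2. Both were most spread in the first run, from 2210.1 to 3355.8 and from 960.6 to 1937.5, where Dahl S replicate 2 was the lowest and Dahl S replicate 1 the highest on each. The probe sets followed each other from rat to rat, with r = 0.855 over 18 rats and 0.854 after the mean of each strain and run was removed. The second run differed from the first by 0.15 ± 0.07 and 0.30 ± 0.11 (log2, SE), with adjusted p of 0.172 and 0.0713 by limma. These became calls when single rats were left out: for 1368607_at without Dahl S replicate 3 (0.20), and for 1393894_at without Dahl S replicate 1 (0.39), Dahl S replicate 3 (0.36) or Dahl S replicate 5 (0.35).

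**Figure D3:**
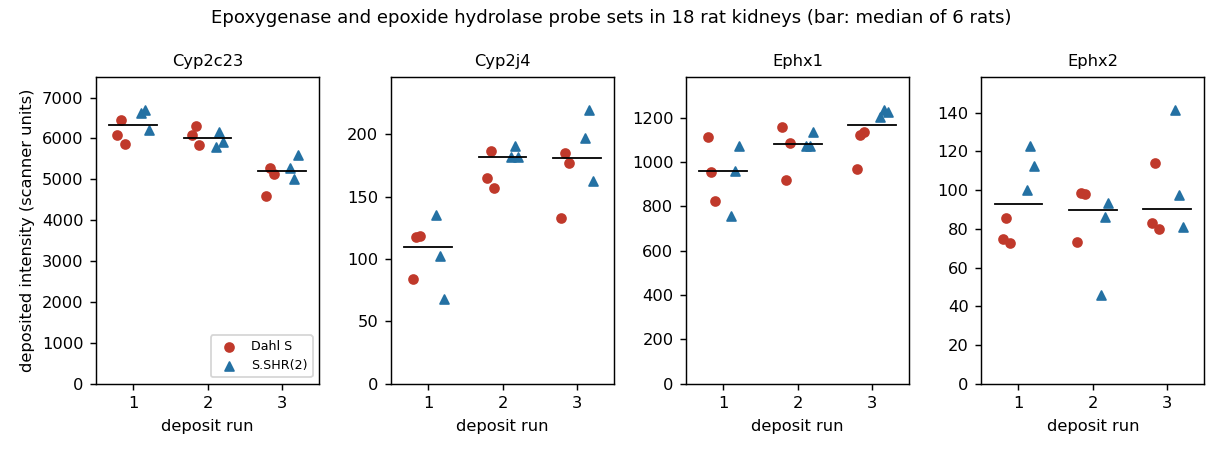
Deposited intensity (y axis, from 0) of Cyp2c23, Cyp2j4, Ephx1 and Ephx2 in each of 18 kidneys, by deposit run (x axis) and strain (circles Dahl S, triangles S.SHR(2)), with the median of each run as a bar. Cyp2j4 sits higher in runs 2 and 3 than in run 1, Cyp2c23 sits lower in run 3 as deposited, and Ephx2 scatters without an order.

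Among the epoxygenases, Cyp2c23, the main arachidonate epoxygenase of rat kidney, was the steadier. Its intensities ran from 4587.8 to 6696.8 over the 18 kidneys, with a coefficient of variation of 9.97%, and medians of 6332.7, 6000.8 and 5208.0 in the first, the second and the third runs. As deposited, all 6 rats of the third run lay below all others, and the third run differed from the first by -0.30 (adjusted p = 1.96e-04 by limma) and from the second by -0.23. After quantile normalization the same differences were 0.06 ± 0.05 and 0.05 ± 0.05 and did not pass, and by rank the probe set stood between 27 and 51 in the third run and between 38 and 62 in the others. Whether Cyp2c23 was lower in the third run thus depends on the scaling.

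Cyp2j4, an epoxygenase of the 2J family, was dim beside Cyp2c23 and differed between runs. The first run gave 84.2, 117.6 and 118.1 in Dahl S and 135.5, 102.1 and 67.7 in S.SHR(2). The second gave 164.8, 186.3 and 156.8 in Dahl S and 181.8, 190.1 and 181.6 in S.SHR(2). The third gave 133.0, 185.0 and 176.7 in Dahl S and 196.9, 219.3 and 162.2 in S.SHR(2). All rats of the second run lay above all of the first, and Dahl S replicate 7 of the third run, at 133.0, reached into the range of the first. The second run exceeded the first by 0.73 ± 0.13 (log2, SE), or 1.66-fold, and the third by 0.72 ± 0.13, with adjusted p of 3.55e-04 and 1.25e-04 by limma. The pseudocount shrinks these differences: with 1 in place of 16 they were 0.82 and 0.80. Within strain and run, Cyp2j4 followed the GAPDH ratio at r = 0.674, and with that ratio as a covariate the differences were 0.72 and 0.69.

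Ephx1 was called between runs, narrowly (adjusted p = 0.0464 for the F test in limma). It gave medians of 958.3, 1079.2 and 1168.4 in the 3 runs, and the ranges overlapped, from 756.4 to 1112.1 in the first and from 969.8 to 1234.7 in the third. The third run exceeded the first by 0.26 ± 0.09 (log2, SE; adjusted p = 0.0222), but this did not pass without Dahl S replicate 3 (0.22) or S.SHR(2) replicate 1 (0.18). The F test kept its call in 4 of the 18 fits that left out a rat. Ephx2 did not pass in any contrast of the runs, with differences from -0.18 to 0.25 (SE 0.16).

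**Figure D4:**
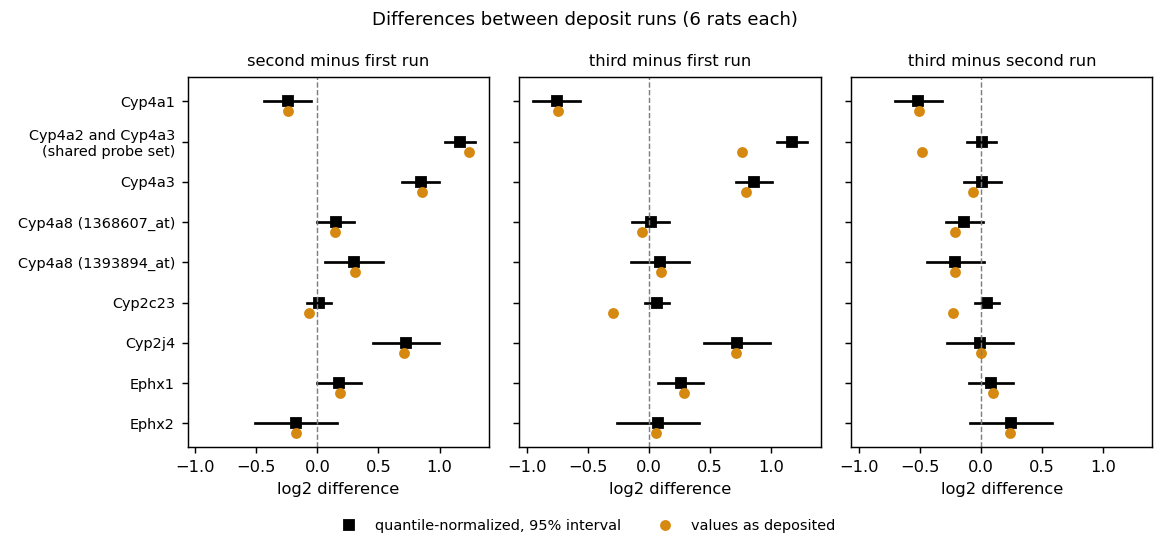
Log2 differences between deposit runs of 6 rats each (x axis) for the 9 probe sets, after quantile normalization with 95% interval (squares) and as deposited (circles). The scalings lie apart for the shared Cyp4a2 and Cyp4a3 set and for Cyp2c23 wherever the third run is compared, and close together for Cyp4a1, Cyp4a3 and Cyp2j4.

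The number of member probe sets whose 6 deposited values lay wholly above those of the first run was 3 in the second run, beside 4.39% of all probe sets tested, and 2 in the third, beside 7.92%. Wholly below the first run lay 2 in the third, beside 10.2%, and wholly below the second lay 3, beside 10.7%. The 3 of the second run were the shared set, Cyp4a3 and Cyp2j4. Wholly below the first run in the third were Cyp4a1 and Cyp2c23, and wholly below the second these and the shared set. Arrays of the third run had lower brightest values. Whether Cyp2c23 was lower in the third run, and whether the shared set was lower there than in the second, depends on the scaling.

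Genes with the most similar pattern over the 18 rats were ranked by Pearson correlation among 10476 genes, as a description of points that share runs and scaling. For Cyp4a1 these were Mrpl15 (r = 0.964, rho = 0.953), a mitochondrial ribosomal protein also on chromosome 5, Pepd (0.946) and Cipc (0.942), and 43 genes exceeded 0.9. The shared Cyp4a2 and Cyp4a3 probe set was closest to Ugt2b35 (r = 0.981, rho = 0.783), a glucuronosyltransferase, then Melk (0.980) and Htra1 (0.977), with 84 genes above 0.9. Within strain and run, r was 0.481, 0.0878 and 0.101 for these. Ties that quantile normalization left in the shared set in the second and the third runs limit what those values show. Mrpl15 kept 0.893 with Cyp4a1, which itself followed the GAPDH ratio at r = 0.906 within strain and run. Whether RNA quality carries this likeness was not tested. Cyp2j4 was closest to Slc49a4 (0.936) and Ephx1 to Prss8 (0.921), a serine protease that activates the epithelial sodium channel. Cyp4a8 and Cyp2c23 had no gene above 0.9, their closest being Parg (0.879) and Gpcpd1 (0.764), and Ephx2 was closest to Mical3 (0.820).

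The wider pathway was described from 7 lists with 77 genes tested, which include the member Cyp4a1 in the PPAR alpha list. Between strains, 0 of the 77 passed in limma, beside 0.123% of all probe sets, and 5 passed at an unadjusted 0.05. With the run as a term 1 passed, beside 0.494% of all probe sets. It was Igf1, a growth factor among the hormone-dependent genes, which was lower in S.SHR(2) (-0.43 ± 0.08, limma adjusted p = 0.00976). Without the run term Igf1 did not pass (limma adjusted p = 0.802). Between runs, 45 of 77 passed, Cyp4a1 among them, beside the 50.1% of all probe sets.

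Of 10 other P450 genes tested, 4 passed between runs. Cyp2c11, a male-predominant P450 of rat liver that also epoxidises arachidonate, had median intensities of 18.4, 532.8 and 357.3 in the 3 runs. Its second and the third runs exceeded the first by 3.98 ± 0.21 and 3.46 ± 0.21 (log2, SE), or 4.84 and 4.30 with a pseudocount of 1, since the first-run values were close to background. The liver markers Alb, Apoa1 and Serpina1 stayed at medians of 1.25 to 19.6 in all runs. Cyp2e1, an omega-1 hydroxylase, was lower in the second and the third runs than in the first (-0.71 ± 0.09 and -0.91 ± 0.09). The omega-hydroxylase Cyp4f1 was lower in the third than in the first (-0.62 ± 0.09), as Cyp4a1 was. The epoxygenase Cyp2j3, with medians of 31.2, 48.4 and 42.5, was higher in both by 0.40 and 0.37 ± 0.11. As deposited, its difference in the third run did not pass (0.27, adjusted p = 0.0634).

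Of the competing cyclooxygenase and lipoxygenase branches, 7 of 14 genes tested were called lower and 2 higher in the second run against the first, beside 9.22% and 9.93% of all probe sets. In the third run 8 were called lower and 3 higher, beside 20.4% and 20.7%. The median log2 difference was -0.27 and -0.35, against 0.00 and 0.01 over all probe sets. Ptgs2, the inducible cyclooxygenase, differed by -1.65 ± 0.17 in the second run and by -1.76 ± 0.17 in the third. Ptgs1, the constitutive enzyme, differed by -0.94 ± 0.17 and -0.87 ± 0.17, and Alox15, a lipoxygenase, by -2.44 and -2.38 ± 0.33. Median intensities in the first, the second and the third run were 138.4, 29.8 and 21.2 for Ptgs2. Those of Alox15 were 202.5, 22.0 and 18.35. With a pseudocount of 1 the differences were -2.06 and -2.27 for Ptgs2, and -3.41 and -3.07 for Alox15. The sizes for these genes thus depend on the pseudocount, while both kept their sign. The prostaglandin-inactivating enzyme Hpgd differed by -1.10 and -0.61 ± 0.10, and Akr1b1, an aldose reductase able to form prostaglandin F, by -1.42 and -1.22 ± 0.24. Ptgds, a prostaglandin D synthase, went the other way, by 0.74 and 1.54 ± 0.16. In these same runs the Cyp4a3 probe set and the shared one were higher, and a relation between the branches was not tested.

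**Figure D5:**
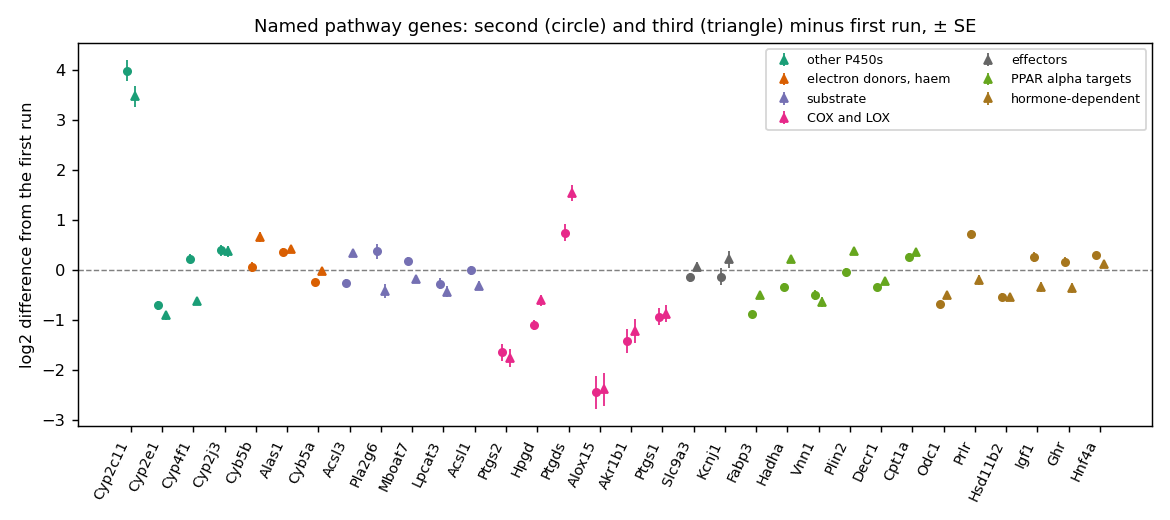
Log2 difference (y axis, ± SE) of the second run (circles) and the third run (triangles) from the first for the named genes of 7 pathway lists, coloured by list. Cyp2c11 stands at 3.98 and 3.46, 5 of the 6 named cyclooxygenase and lipoxygenase genes lie below 0, and the PPAR alpha targets lie on both sides.

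Of the genes that supply electrons and haem to P450 enzymes, 3 of 7 passed between runs. Alas1, the first enzyme of haem synthesis, was higher in the second and the third runs than in the first (0.36 ± 0.08 and 0.41 ± 0.08), and Cyb5b, a cytochrome b5, was higher in the third (0.65 ± 0.11). Cyb5a, also a cytochrome b5, was lower in the second run than in the first (-0.24 ± 0.06). Among enzymes that release arachidonate or return it to phospholipids, 5 of 10 passed. The phospholipase Pla2g6 was lower in the third run than in the second (-0.79 ± 0.14), Mboat7 likewise (-0.36 ± 0.08), and the acyl-CoA synthetase Acsl3 was higher (0.60 ± 0.08). Against the first run, Lpcat3 and Acsl1 were lower in the third (-0.43 ± 0.10 and -0.32 ± 0.09). Of 5 tested receptors and effectors of 20-HETE and epoxides, 0 passed between runs in limma, nor did any at an unadjusted 0.05. The sodium-proton exchanger Slc9a3 differed by -0.14 and 0.06 ± 0.09 from the first run, and the potassium channel Kcnj1 by -0.13 and 0.21 ± 0.17.

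The Cyp4a genes are known targets of the fatty acid receptor PPAR alpha, and the genes listed for it were called in both directions. That list holds the member Cyp4a1 and the receptor genes Ppara and Rxra beside other targets. Of 22 tested, 3 were called higher and 6 lower in the second run against the first, beside 9.93% and 9.22% of all probe sets. In the third run 6 were called higher and 7 lower, Cyp4a1 among the lower, beside 20.7% and 20.4%. Cpt1a, which admits fatty acids to mitochondria, was higher in both (0.26 and 0.35 ± 0.07), and Plin2, a lipid droplet protein, in the third (0.37 ± 0.08). The fatty acid binding protein Fabp3 was lower in both (-0.88 and -0.51 ± 0.06), as were the pantetheinase Vnn1 (-0.49 and -0.65 ± 0.10) and the oxidation enzyme Decr1 (-0.33 and -0.21 ± 0.06), though with arrays centred on medians the third-run difference of Decr1 did not pass (adjusted p = 0.0566 in limma). Hadha, of mitochondrial fatty acid oxidation, was lower in the second run (-0.34 ± 0.08) and higher in the third (0.22 ± 0.08), but the latter did not pass without Dahl S replicate 3 (0.17), S.SHR(2) replicate 2 (0.18) or Dahl S replicate 7 (0.21). Of 9 hormone-dependent kidney genes, 7 passed between runs. Odc1, the ornithine decarboxylase that androgens induce in kidney, was lower in both (-0.68 and -0.50 ± 0.06). Prlr, the prolactin receptor, was higher in the second run (0.71 ± 0.10) and differed by -0.20 ± 0.10 in the third, which did not pass. Hsd11b2, which shields the mineralocorticoid receptor from glucocorticoids, was lower in both (-0.54 and -0.54 ± 0.08), and the transcription factor Hnf4a was higher in the second (0.30 ± 0.06). Ghr, the growth hormone receptor, was lower in the third run than in the first (-0.36 ± 0.10).

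Cell markers also differed between the runs. Calls over all probe sets were 9.93% higher and 9.22% lower in the second run against the first, and 20.7% and 20.4% in the third. Arrays correlated at a median of 0.980 within a run and 0.950 between runs. The summed intensity of 11 proximal tubule markers, the segment where the Cyp4a genes and Cyp2c23 are mainly expressed, ran from 32817.8 to 36637.9 in the first run, from 32483.4 to 37191.0 in the second and from 26011.1 to 30916.9 in the third. Of these 11, 2 were called higher and 1 lower in the second run against the first, and 1 higher and 3 lower in the third. The sums are of deposited intensities, and arrays of the third run had lower brightest values. The calls rest on quantile-normalized values. There the median log2 difference of the 11 in the third run against the first was -0.07, beside 0.01 over all probe sets. The sum of 4 leukocyte markers ran from 1950.9 to 2411.2, from 3172.9 to 3770.5 and from 3440.8 to 3949.7, and all 3 of those tested were called higher in both. The sum of 5 collecting duct markers ran from 4802.0 to 5110.3, from 3088.5 to 4191.6 and from 2866.7 to 4212.5, with 4 and then 3 called lower. The sum of 4 adrenal markers stayed between 22.8 and 73.8. The part of these shifts in the differences of the P450 genes between runs was not tested.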

How the data were processed

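The authors deposited an intensity for each probe set of each array, linear and already scaled: the mean after trimming both ends lay between 150.046 and 150.054 on every array. The sources used here do not name the software behind them, and scanner output and detection calls were not used here. The 57 control probe sets were left out. Values were taken as log2(intensity + 16) and quantile-normalized, and the dimmest 40% of probe sets were left out (mean log2 under 5.48). Strain was fitted with limma 3.58.1 (R 4.3.3, lmFit and eBayes with trend) without covariates and with the run as a term, the runs with strain as a term, and their interaction. Adjusted p-values are Benjamini-Hochberg over 18625 probe sets, two-sided. Of all probe sets, 20826 name 1 gene, 436 several and 9780 none. A gene of a list was represented by its brightest probe set that names it alone. Nothing labels the rats as littermates or batches, replicate numbers only name them, p-values measure the spread between these rats, and the number of arrays limits the precision. The members and lists were chosen with earlier results of these data known. Named are all members and, of each list, up to 6 genes past the threshold by smallest p, otherwise 2. The fits were tested on simulated data. The strain fits met no differences between runs there, so it does not show how often the fit without the run term finds a strain difference in these arrays. Upstream windows were aligned with Biopython 1.88, permutations run with scipy 1.17.1, and figures drawn with matplotlib 3.10.9.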

Additional observations from a re-analysis of the deposited data

Results flagged for a closer look

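Of 45 sets of values (each member in each strain and each run), 3 held a value whose gap to its nearest neighbour exceeded the critical share of the range for that number of rats; chance alone flags about 1 in 20. S.SHR(2) replicate 1 gave 2982.8 for Cyp4a1 in the first run, where the next value was 2328.4. Dahl S replicate 1 gave 2372.0 for Cyp4a3 in the first run, where the next value was 1780.7. Dahl S replicate 5 gave 918.9 for Ephx1 in the second run, where the next value was 1070.1. The first and last of these are the arrays with the highest GAPDH ratios, 2.51 and 2.04, while Dahl S replicate 1 had the lowest, 1.19.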

How the results depend on the processing

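The count of members called between strains, with or without the run term, and in the interaction was 0 under every alternative that could be fitted, each rat left out included. The count called between runs was 5, and 3 without the third run, a setting added after the data were seen, as was the GAPDH ratio as a covariate. It was 6 as deposited, with arrays centred on medians and with array weights, and 4 with no filter, with eBayes without a trend, without the 2 arrays of highest GAPDH ratio and with 2 runs split at the gap in the deposit order. The remaining settings gave 5. It was 4 to 6 with single rats left out, and Cyp4a1, the shared Cyp4a2 and Cyp4a3 set, Cyp4a3 and Cyp2j4 kept their call in all 18 of these fits. Over all probe sets, array weights gave 41 strain calls in place of 23 and 43 interaction calls in place of 1, which became 5 without the 2 arrays of highest GAPDH ratio and 2 with the covariate. Without the third run, strain with the run term gave 38 calls in place of 92. The run calls, 9336, became 3070 without the third run and 3881 with the 2 runs.

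Apart from single rats left out, 28 differences turned sign, mostly near 0. As deposited, run 3 minus run 2 was -0.48 for the shared set, -0.061 for Cyp4a3 and 0.0028 for Cyp2j4, and run 3 minus run 1 was -0.063 for Cyp4a8 (1368607_at). Cyp2c23 gave 0.047 for strain in both fits, and -0.069, -0.30 and -0.23 for run 2 minus 1, run 3 minus 1 and run 3 minus 2. With arrays centred on medians, run 3 minus run 2 was -0.43 for the shared set, -0.0058 for Cyp4a3 and 0.0585 for Cyp2j4. Strain, in both fits, was 0.037 for Cyp4a3, 0.0095 for Cyp4a8 (1393894_at) and 0.091 for Cyp2c23, which gave -0.053, -0.22 and -0.17 between runs. Without the 2 arrays of highest GAPDH ratio, strain was 0.064 for Cyp4a3 and 0.0014 for Cyp2c23, run 3 minus run 2 was -0.0062 for Cyp4a3 and 0.0068 for Cyp2j4, and run 3 minus run 1 was -0.0088 for Cyp4a8 (1368607_at). Ephx1 gave -0.00073 for strain with the run term without the third run, and the shared set -0.0041 for run 3 minus run 2 with the covariate. Quantile normalization sets values by rank; the cause of the other turns was not tested.

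With single rats left out, strain without the run term ran from -0.023 to 0.010 for Cyp2c23, -0.0052 to 0.14 for Cyp4a1, -0.060 to 0.16 for the shared set, -0.13 to 0.049 for Cyp4a3, -0.021 to 0.048 for Cyp4a8 (1368607_at) and -0.0010 to 0.10 for Ephx1. With the run term it ran from -0.021 to 0.010 for Cyp2c23, -0.067 to 0.016 for Cyp4a3 and -0.020 to 0.059 for Cyp4a8 (1368607_at). Run 3 minus run 2 ran from -0.068 to 0.069 for Cyp2j4, -0.0099 to 0.0255 for the shared set and -0.021 to 0.028 for Cyp4a3. Run 3 minus run 1 ran from -0.052 to 0.066 for Cyp4a8 (1368607_at), -0.011 to 0.19 for Cyp4a8 (1393894_at) and -0.024 to 0.13 for Ephx2, and run 2 minus run 1 from -0.00024 to 0.034 for Cyp2c23. No paired analysis was possible because replicate numbers only name the rats and pair none of them.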
